A study of Mus musculus with 6 samples.

Results

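The aminoacyl-tRNA synthetase genes were followed in 6 mouse neural stem cell lines, each measured once on an Affymetrix expression array. They were taken as every gene whose single-gene platform symbol is a 1-letter amino acid code followed by ars with or without a digit, plus Eprs, Farsa, Farsb, Aimp1 and Aimp2, which gave 37 of the 18193 genes with a single-gene probe set. Of these, 19 encode cytosolic enzymes, 16 encode mitochondrial enzymes (symbols ending in 2) and 2, Aimp1 and Aimp2, encode scaffold proteins of the multisynthetase complex. A filter on low signals left 36 of the 37 among 12663 genes tested, and the one that did not pass was Mars2. By their labels 3 of the lines are FoxO-null and 3 are wild-type, and the labels name neither the deleted FoxO genes nor the strain, age or culture condition. The study's description calls the lines independent, and FoxO-null 1 to 3 and wild-type 1 to 3 below are single lines with 1 array each. The comparison asks which transcripts differ in neural stem cells, dividing cells that can give rise to neurons and glia, when FoxO transcription factors are missing.

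Aminoacyl-tRNA synthetases join each amino acid to its matching tRNA and so supply the ribosome. Animal cells keep separate sets of enzymes for the cytosol and for mitochondria, nearly all encoded by separate nuclear genes, while Gars and Kars each encode both forms. Several cytosolic enzymes are bound together in the multisynthetase complex, and many cytosolic synthetase genes are known targets of ATF4, the transcription factor of the amino acid and endoplasmic reticulum stress response. FoxO factors are held out of the nucleus by insulin signalling, which also promotes protein synthesis.

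The FoxO probe sets went against the labels, so the groups are called by their labels throughout. Of 9 probe sets for Foxo1, Foxo3 and Foxo4, 8 had a positive log2 fold change in the lines labelled FoxO-null, although a probe set outside a deleted exon does not check the deletion. Whether the labels of the groups are exchanged was not tested, and if they were, every sign and every share of negative values below would turn. The brightest Foxo1 probe set read 77.9, 77.8 and 100.3 in FoxO-null 1 to 3, against 20.3, 20.4 and 31.7 in wild-type 1 to 3. All 8 neural stem and progenitor markers lay above the bacterial control probe sets on all 6 arrays. So did 7 of 8 neuron, 7 of 8 astrocyte and 6 of 7 measured oligodendrocyte lineage markers. This held for 1 of 8 microglial, 3 of 8 fibroblast and 0 of 6 endothelial markers. The microglial markers Aif1, Itgam, Ptprc and Tyrobp lay at or under the controls on every array. The stem and progenitor markers summed to 18264.5 to 19880 in lines labelled FoxO-null and 14247 to 18635 in lines labelled wild-type, which overlap. Of these markers 5 had a positive and 3 a negative log2 fold change. The summed signal of 7 measured oligodendrocyte lineage markers was 8948 to 9203 in lines labelled FoxO-null and 5130.1 to 6283 in lines labelled wild-type, that of 8 astrocyte markers 9333 to 10434 in lines labelled FoxO-null and 6576 to 8491 in lines labelled wild-type, and that of 8 neuron markers 2036 to 2374 in lines labelled FoxO-null and 2622 to 2979.5 in lines labelled wild-type. The neuron sum differed mainly through the bright Gap43 (log2 fold change -0.74), and 6 of the 8 neuron markers were negative. Of the others, Tubb3 had -0.64, Syt1 -0.43, Stmn2 -0.32, Rbfox3 -0.098 and Map2 -0.0050, while Dcx had 0.16 and Snap25 0.14. The sum of 8 fibroblast markers was 647 to 1092 in lines labelled FoxO-null and 290.5 to 591 in lines labelled wild-type, mainly through Thy1 (2.75). That of 8 microglial markers, mostly near the controls, was 146 to 169 in lines labelled FoxO-null and 101 to 135 in lines labelled wild-type. It differed mainly through Trem2, at 25.4, 30.5 and 41.8 in FoxO-null 1 to 3, against 10.9, 0.91 and 8.21 in wild-type 1 to 3. The 2 microglial markers tested, Csf1r and Cd68, had -0.11 and -0.19. The part of these differences in the values below was not tested. The highest bacterial control of an array, its background level, was 19.2, 27.6 and 26.9 in FoxO-null 1 to 3, against 14.4, 15.8 and 19.1 in wild-type 1 to 3, so the lowest FoxO-null value lay just above the highest wild-type value. Every probe set used for the 36 tested genes lay above it on all 6 arrays, with a lowest signal of 45.2. Each array had been scaled to the same trimmed mean signal, and array medians were 25.5 to 32.8. FoxO-null 3 correlated least with any other array (highest r 0.952), and wild-type 1 had an 18S RNA control signal of 211, against 23.5 to 38.9 on the other 5. Many of the smaller differences below shift without one of these arrays.

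The promoters of the cytosolic and mitochondrial genes differed in short sequence matches, and the matches to the ATF4 and FoxO cores are shown because these factors link the genes to stress signalling and to the labels. Promoter windows of 300 bases, 250 before and 50 from the transcription start on, came from RefSeq on GRCm38.p6. Of the 36 tested genes 27 had one, with 29 windows in all. These were 12 of 19 cytosolic, 13 of 15 mitochondrial and 2 of 2 scaffold genes. The counts by class are small, and the differences between classes were not tested. The core of the C/EBP-ATF response element, which ATF4 binds, was searched as TGATGNAA on both strands and was present in 5 of 12 cytosolic windows (41.7%), 0 of 14 mitochondrial windows and 0 of 3 scaffold windows, against 3.97% of all 32851 windows. A match from each of these 5 genes is printed on the strand that reads TGATGNAA, with the motif in capitals, and each line gives the place of the motif's first base along the gene. Aars has a second match, 112 bases before the start, which is not printed.
Aars, chr8:111033840-111033869, minus strand, 9 bases after the start: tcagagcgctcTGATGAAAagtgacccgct
Gars, chr6:55037960-55037989, minus strand, 30 bases before the start: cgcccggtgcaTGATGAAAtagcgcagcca
Iars, chr13:49682126-49682155, minus strand, 7 bases after the start: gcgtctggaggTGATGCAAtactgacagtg
Tars, chr15:11399655-11399684, plus strand, 15 bases before the start: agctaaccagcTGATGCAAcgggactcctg
Yars, chr4:129189895-129189924, plus strand, 3 bases after the start: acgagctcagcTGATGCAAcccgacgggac

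The FoxO core, searched as GTAAACA on both strands, was present in 2 of 14 mitochondrial windows and 0 of 12 cytosolic windows, against 3.65% of all windows. The matches, again with the motif in capitals, lay in the windows of Iars2 and Vars2.
Iars2, chr1:185329485-185329514, minus strand, 102 bases before the start: gccgagtgataGTAAACAcctctctctacc
Vars2, chr17:35667762-35667791, plus strand, 187 bases before the start: tatcccggtgtGTAAACAaaatacatctga

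The E box CACGTG, a site of Myc and related factors searched on both strands, was in 4 of 12 cytosolic windows (Aars, Farsb, Iars and Tars), 1 of 14 mitochondrial windows (Ears2) and 7.15% of all windows. The NRF1 site GCGCNTGCGC, also searched on both strands, was in 3 of 12 cytosolic windows (Farsb, Kars and Tars), 1 of 14 mitochondrial windows (Iars2) and 4.6% of all windows. A match of letters does not show that a factor binds, and a window without a match says nothing about sites elsewhere. With the ATF4 core, the log2 fold changes (FoxO-null minus wild-type) were -0.073 for Aars, -0.16 for Gars, -0.077 for Iars, -0.15 for Tars and -0.27 for Yars. With the FoxO core they were 0.021 for Iars2 and -0.37 for Vars2. A second probe set had the opposite sign for Vars2 (0.12) and for Iars (0.018). For Iars2 a second probe set, nearly as bright as the one used, had 0.35 ± 0.22. None of these 7 genes passed the test described next.

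Most synthetase transcripts had slightly lower signals in the lines labelled FoxO-null than in those labelled wild-type, and none passed the test. In such bulk samples fewer cells of a type and less RNA per cell cannot be told apart. Of the 36 tested genes, 29 (80.6%) had a negative log2 fold change, against 48.2% of all genes tested, and the median over the 36 was -0.16, against 0.0099 over all genes. Past a Benjamini-Hochberg adjusted p of 0.05 in limma there were 0 of the 36, against 0.0395% (5 of 12663) of all genes, and no other tool was run. With limma p-values left unadjusted, 5 of the 36 (13.9%) lay under 0.05, each of them lower in FoxO-null lines, with 0 higher. The same share of all genes was 10.2% in either direction, 4.9% lower and 5.31% higher. The same 5 genes, Vars, Kars, Rars, Yars2 and Rars2, had all 3 FoxO-null arrays below all 3 wild-type arrays, which held for 7.93% of all genes, and 0 of the 36 had all 3 above, which held for 8.08%. The genes share arrays and vary together, so the share of negative values counts no independent events. Centring each array on its median moved the median of all genes to -0.058 and made 32 of the 36 negative, with Cars, Iars2 and Aimp1 turning negative. The 95% interval of the limma fit lay within 1 log2 unit of 0, a 2-fold change either way, for all 36 genes, with a lowest bound of -0.94 and a highest of 0.67.

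**Figure D1:**
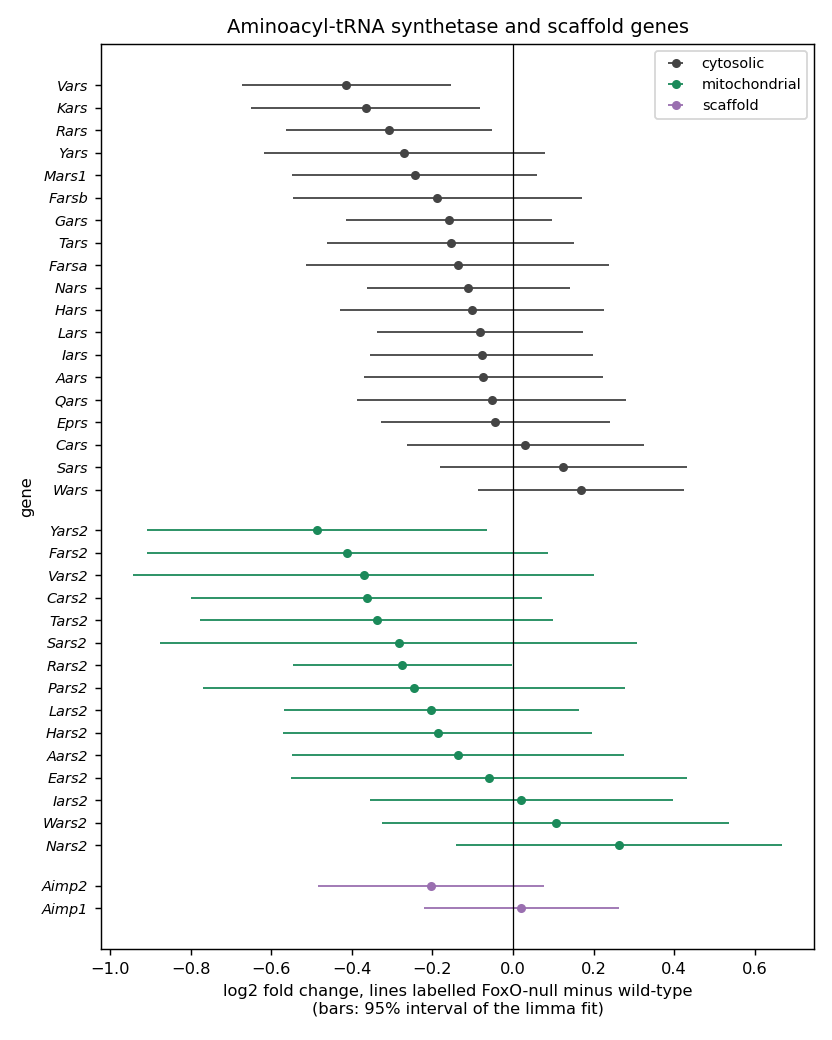
Log2 fold changes (on the x axis, FoxO-null over wild-type) of the 36 tested genes, by class, with points for the limma estimate and bars for its 95% interval. Most points lie left of 0, and the bars of Vars, Kars, Rars, Yars2 and Rars2 do not cross it.

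Among the cytosolic enzymes, 16 of 19 had a negative log2 fold change, with a median of -0.11. Vars, which charges tRNA with valine, read 309, 343 and 350.0 in FoxO-null 1 to 3, against 480.0, 422 and 438 in wild-type 1 to 3. Every FoxO-null array lay below every wild-type array, at means of 334 ± 22.0 in FoxO-null lines and 447 ± 30.1 in wild-type lines (SD, n = 3 each). Its log2 fold change was -0.41 ± 0.12 (limma adjusted p 0.268), with a 95% interval of -0.67 to -0.15. Kars, the lysine enzyme of cytosol and mitochondria, read 395, 399.6 and 506 in FoxO-null 1 to 3, against 594, 518 and 559.7 in wild-type 1 to 3. FoxO-null 3 came close to the lowest wild-type array, and the log2 fold change was -0.37 ± 0.13 (limma adjusted p 0.371). Rars, the arginine enzyme, read 290.0, 314 and 328 in FoxO-null 1 to 3, against 378, 399.7 and 379.8 in wild-type 1 to 3. The groups did not overlap here either, and the log2 fold change was -0.31 ± 0.12 (limma adjusted p 0.395).

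The next cytosolic genes by p overlapped between the groups. Mars1, the methionine enzyme that also charges the initiator tRNA, read 321, 271 and 355 in FoxO-null 1 to 3, against 360.4, 343 and 417 in wild-type 1 to 3. FoxO-null 3 lay above wild-type 2, and the log2 fold change was -0.24 ± 0.14 (limma adjusted p 0.585). Yars, the tyrosine enzyme, read 218, 182 and 184 in FoxO-null 1 to 3, against 204, 221 and 288 in wild-type 1 to 3. The difference came mostly from the high wild-type 3, and the log2 fold change was -0.27 ± 0.16 (limma adjusted p 0.605), or -0.13 without wild-type 3. Wars, the tryptophan enzyme, which interferon is known to induce, ran the other way and read 449, 489 and 517 in FoxO-null 1 to 3, against 464, 401 and 428 in wild-type 1 to 3. Wild-type 1 lay above FoxO-null 1, and the log2 fold change was 0.17 ± 0.12 (limma adjusted p 0.659). The 4 Wars probe sets disagreed in sign, with log2 fold changes of 0.17, 0.0079, -0.12 and -0.18 in order of mean signal, so Wars has no settled direction.

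The enzymes that work as fused or 2-subunit proteins had overlapping groups. Eprs, 1 protein that charges both glutamate and proline, read 459.8, 485 and 470.4 in FoxO-null 1 to 3, against 417, 565 and 488 in wild-type 1 to 3, and its wild-type arrays spread wider than its FoxO-null arrays. Its log2 fold change was -0.044 ± 0.13 (limma adjusted p 0.938). Farsa, the catalytic subunit of the phenylalanine enzyme, read 245, 210.0 and 304 in FoxO-null 1 to 3, against 269, 333 and 234 in wild-type 1 to 3, at -0.14 ± 0.17 (limma adjusted p 0.830). Farsb, its partner subunit, read 231, 221 and 232 in FoxO-null 1 to 3, against 330.2, 255 and 209.5 in wild-type 1 to 3, at -0.19 ± 0.16 (limma adjusted p 0.743). Without wild-type 1, Farsb had -0.020. With 1 array left out, Farsa ran from -0.28 without FoxO-null 3 to -0.0036 without wild-type 2, and had -0.014 without FoxO-null 2. The 2 subunit genes did not keep one order over the lines: Farsa was highest on wild-type 2 and Farsb on wild-type 1. The brighter probe sets of both disagreed in sign, from -0.14 to 0.42 for the 2 Farsa and from -0.58 to 0.15 for the 3 Farsb probe sets above the controls on every array.

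In the probe sets used, the other 10 cytosolic genes had log2 fold changes between -0.16 and 0.13, with SEs of 0.11 to 0.15 and overlapping groups in each. The values were -0.16 for the glycine enzyme gene Gars, -0.15 for Tars (threonine), -0.11 for Nars (asparagine), -0.10 for Hars (histidine) and -0.082 for Lars (leucine, also known as a leucine sensor of mTORC1). They were -0.077 for Iars (isoleucine), -0.073 for Aars (alanine), -0.053 for Qars (glutamine), 0.03 for Cars (cysteine) and 0.13 for Sars (serine). The adjusted limma p of these 10 ran from 0.680 to 0.958. A second Hars probe set had all FoxO-null arrays below all wild-type arrays, at -0.25 ± 0.12, and a second Iars probe set had 0.018 ± 0.12. Gars read 941, 1016 and 1206 in FoxO-null 1 to 3, against 1181, 1215 and 1120.0 in wild-type 1 to 3, and FoxO-null 3 lay among the wild-type arrays, with a log2 fold change of -0.26 without it. Without wild-type 1, Sars had 0.013, Hars -0.018, Aars -0.21 and Tars -0.27.

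**Figure D2:**
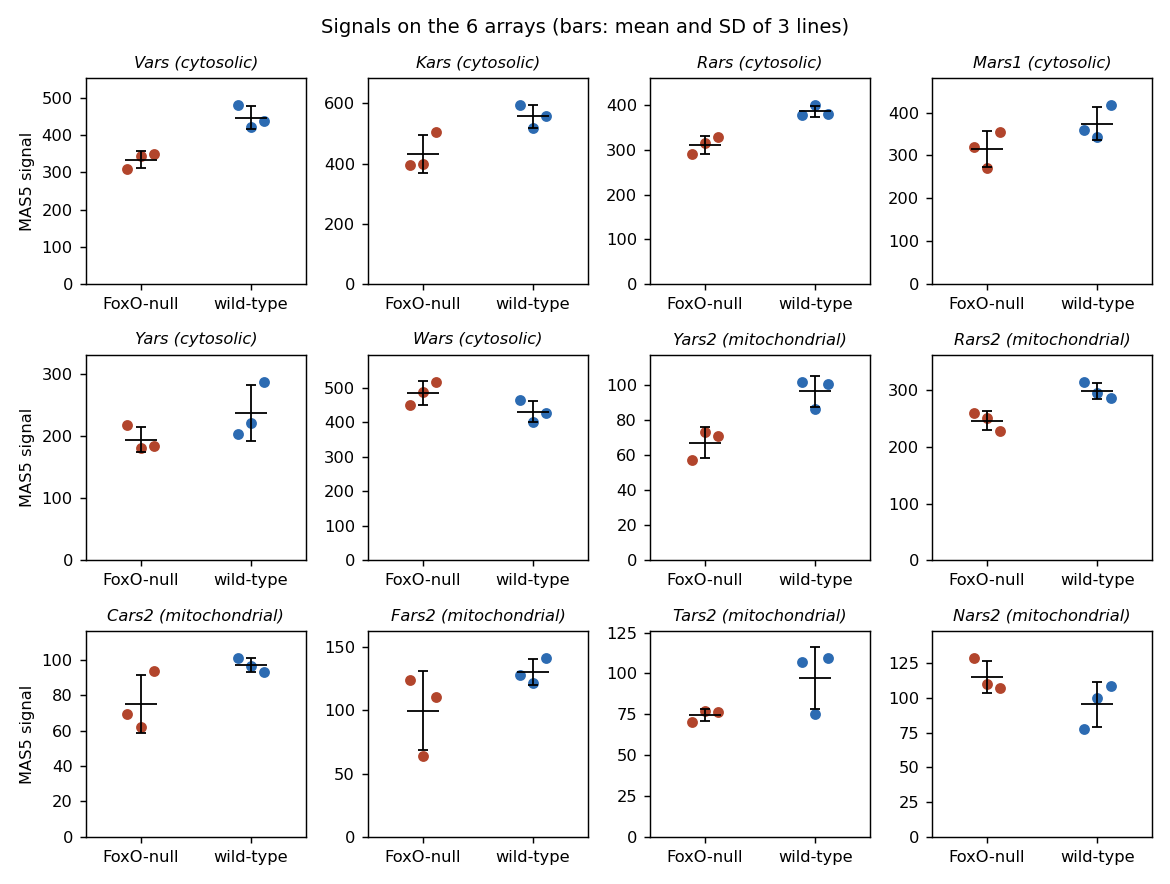
MAS5 signals of 12 synthetase genes on the 6 arrays, 1 point per line, with the mean and SD of 3 lines per group. FoxO-null points lie below all wild-type points for Vars, Kars, Rars, Yars2 and Rars2, and the groups overlap for the other genes.

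Among the mitochondrial enzymes, which serve the translation of the few proteins encoded in mitochondrial DNA, 12 of 15 had a negative log2 fold change, with a median of -0.25. Yars2, the tyrosine enzyme, read 57.1, 73.5 and 71.3 in FoxO-null 1 to 3, against 102, 86.4 and 101 in wild-type 1 to 3. The FoxO-null arrays all lay below the wild-type arrays, and its value was -0.49 ± 0.19 (limma adjusted p 0.413) with a 95% interval of -0.91 to -0.065. This was the most negative value of the 36 in the probe sets used. Rars2, the arginine enzyme, read 261, 252 and 228 in FoxO-null 1 to 3, against 315, 296 and 288 in wild-type 1 to 3. Again the groups did not overlap, at -0.28 ± 0.12 (limma adjusted p 0.483). Cars2, the cysteine enzyme, read 69.4, 62.2 and 93.5 in FoxO-null 1 to 3, against 101, 96.7 and 93.3 in wild-type 1 to 3, and FoxO-null 3 lay just above wild-type 3, at -0.36 ± 0.20 (limma adjusted p 0.566).

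Fars2, the mitochondrial phenylalanine enzyme, a single chain unlike its cytosolic counterpart, read 124, 64.3 and 111 in FoxO-null 1 to 3, against 128, 121 and 141 in wild-type 1 to 3. FoxO-null 2 was the low array and the log2 fold change was -0.41 ± 0.23 (limma adjusted p 0.569), or -0.14 without FoxO-null 2. Tars2, the threonine enzyme, read 70.3, 76.8 and 76.6 in FoxO-null 1 to 3, against 107, 75.1 and 109 in wild-type 1 to 3, with wild-type 2 among the FoxO-null values, at -0.34 ± 0.20 (limma adjusted p 0.605). Vars2, the valine enzyme, read 59.98, 61.4 and 127 in FoxO-null 1 to 3, against 107, 98.8 and 102 in wild-type 1 to 3. Its FoxO-null 3 value was the highest of all 6, and the log2 fold change was -0.37 ± 0.26 (limma adjusted p 0.668), or -0.70 without that array. The other Vars2 probe set, dimmer but above the bacterial controls on all 6 arrays, had 0.12 ± 0.30, so Vars2 has no settled direction. Nars2, the asparagine enzyme, was the most positive of the 36 genes in the probe sets used. It read 129, 109.7 and 107 in FoxO-null 1 to 3, against 77.6, 100.2 and 109 in wild-type 1 to 3. Wild-type 3 lay above FoxO-null 3, and the log2 fold change was 0.26 ± 0.18 (limma adjusted p 0.665), or 0.13 without wild-type 1.

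The other 8 tested mitochondrial genes had overlapping groups and adjusted limma p of 0.723 to 0.981. Their log2 fold changes were -0.28 for Sars2, -0.25 for Pars2, -0.20 for Lars2, -0.19 for Hars2 and -0.14 for Aars2. They were -0.059 for Ears2, 0.11 for Wars2 and 0.021 for Iars2. Sars2 moved most over the lines, reading 109, 62.3 and 143 in FoxO-null 1 to 3, against 155, 103 and 115 in wild-type 1 to 3, and its sign turned to 0.031 without FoxO-null 2. Wars2 had 2 probe sets of opposite sign, 0.11 and -0.14. The other Iars2 probe set, with a mean signal of 113.7 against 113.8 for the one used, had 0.35 ± 0.22. Mars2, the methionine enzyme, was not tested: it lay above the bacterial controls on 1 of 6 arrays and read 8.26, 11.8 and 13.8 in FoxO-null 1 to 3, against 19.2, 14.6 and 2.03 in wild-type 1 to 3.

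The cytosolic and mitochondrial classes leaned the same way. Averaged over its 19 genes relative to the mean of the 6 arrays, the cytosolic class stood at -0.094, -0.12 and 0.021 in FoxO-null 1 to 3, against 0.015, 0.075 and 0.10 in wild-type 1 to 3 (log2 units). FoxO-null 3 lay just above wild-type 1, so the groups overlapped. The mitochondrial class stood at -0.10, -0.19 and -0.0077 in FoxO-null 1 to 3, against 0.13, 0.057 and 0.11 in wild-type 1 to 3 over 15 genes, with no overlap but FoxO-null 3 nearest to wild-type. The difference between the classes, cytosolic minus mitochondrial, was 0.0058, 0.069 and 0.029 in FoxO-null 1 to 3, against -0.11, 0.018 and -0.0098 in wild-type 1 to 3, so the groups overlapped in it. The cytosolic median was 0.13 log2 units above the mitochondrial one. Without FoxO-null 3 it was -0.17 and lay 0.022 above the mitochondrial median, and the gap was 0.084 without FoxO-null 2 or without wild-type 1, and 0.076 without wild-type 2. The mitochondrial probe sets were measured less precisely, with a median SE of the log2 fold change of 0.196, against 0.134 for the cytosolic ones. No p is given for these averages, since the genes were chosen with earlier results known.

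Of 13 amino acids with both a cytosolic and a mitochondrial gene tested, 8 pairs were negative in both classes, 1 (Wars and Wars2, whose other probe sets turn the sign) was positive in both and 4 differed in sign. In 9 of the 13 pairs the cytosolic value lay above the mitochondrial one. The widest gap was in Sars and Sars2, at 0.13 and -0.28, although Sars had 0.013 without wild-type 1 and Sars2 ran from -0.53 with FoxO-null 3 left out to 0.031 with FoxO-null 2 left out. The widest gap in the other direction was in Nars and Nars2, at -0.11 and 0.26. The arginine pair Rars and Rars2, at -0.31 and -0.28, and the valine pair Vars and Vars2, at -0.41 and -0.37, were close in the probe sets used. The other Vars2 probe set had 0.12. Hars and Hars2 overlap at their ends in the RefSeq annotation, and had -0.10 and -0.19. The differences within pairs were not tested.

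**Figure D3:**
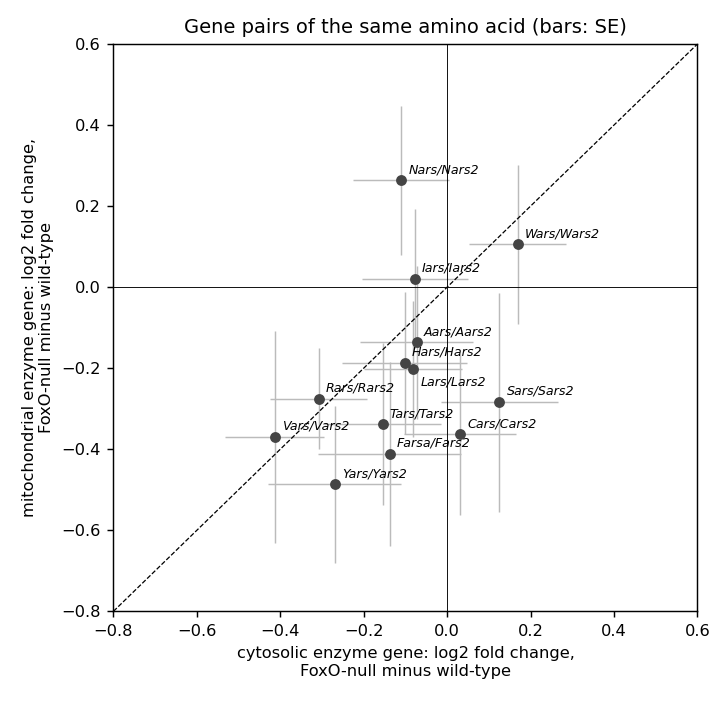
Log2 fold change (FoxO-null over wild-type) of the mitochondrial gene, on the y axis, against that of the cytosolic gene, on the x axis, for 13 amino acids, with bars for the SE and a dashed line of equality. In 8 pairs both values are negative, and 9 of the 13 points lie below the line.

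Within the classes, the genes did not vary as one. Correlated over the 6 arrays with the mean of the rest of its class, 15 of 19 cytosolic genes had a positive r, with a median of 0.53, and 12 of 15 mitochondrial genes did, with a median of 0.57. These are descriptions over 6 arrays that share their scaling. The cytosolic genes closest to the rest of their class were Nars (r = 0.882), Mars1 (0.853), Tars (0.827) and Rars (0.826), while Wars (-0.549) and Hars (-0.313) ran against it. Of the mitochondrial genes, Cars2 followed the rest most closely (0.920) and Nars2 ran against it (-0.698). Of 12627 other genes, the 5 whose pattern over the 6 arrays was most like the cytosolic mean, with no p because they are the top of that ranking, were Mthfd2 (r = 0.995), Pgd (0.994), Get4 (0.988), Pabpn1 (0.984) and Cnbp (0.979). Mthfd2 is a mitochondrial folate enzyme gene and a known ATF4 target. It read 185, 169 and 275 in FoxO-null 1 to 3, against 284, 334 and 348 in wild-type 1 to 3, and its log2 fold change was -0.63 ± 0.18 (limma adjusted p 0.268).

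The scaffold of the multisynthetase complex, which holds several cytosolic enzymes together, had overlapping groups for both genes of the set in the probe sets used. Aimp1, the p43 scaffold whose cleaved form is known as a cytokine, varied least of the 36 over the 6 arrays and read 457, 428 and 448 in FoxO-null 1 to 3, against 424, 426 and 464 in wild-type 1 to 3, at 0.021 ± 0.11 (limma adjusted p 0.966). Aimp2, the p38 scaffold, read 520.4, 400.5 and 419 in FoxO-null 1 to 3, against 493, 546 and 497 in wild-type 1 to 3, where FoxO-null 1 lay among the wild-type values, at -0.20 ± 0.13 (limma adjusted p 0.624). The other Aimp2 probe set had all FoxO-null arrays below all wild-type arrays, at -0.30 ± 0.12. Eef1e1, the third scaffold gene and not of the set, read 567, 505 and 458 in FoxO-null 1 to 3, against 619.5, 591 and 575 in wild-type 1 to 3, with all FoxO-null arrays below all wild-type arrays, at -0.23 ± 0.12 (limma adjusted p 0.548). Over the 10 tested genes of the complex, 9 had a negative log2 fold change, the median was -0.14 and 0 passed in limma (2 unadjusted, 20% against 10.2% of all genes).

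By catalytic class, the 2 families of synthetase fold unrelated to each other in evolution, the 18 tested class I genes had a median value of -0.14 with 14 negative, and the 16 tested class II genes one of -0.16 with 14 negative. Eprs, whose protein charges both glutamate and proline, was counted in class I only. The 13 cytosolic genes listed as ATF4 targets had a median of -0.082 with 10 negative. The 6 other cytosolic genes, Kars, Rars, Hars, Qars, Farsa and Farsb, had one of -0.16 with 6 negative. The difference between these groups was not tested.

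The ATF4 and amino acid response genes were split in direction. Of 30 tested genes on its list, 16 had a negative and 14 a positive log2 fold change, with a median of -0.039, and 0 passed in limma (4 unadjusted, 13.3% against 10.2%). Atf4 itself read 1030.1, 694 and 1269 in FoxO-null 1 to 3, against 713, 1126 and 1018 in wild-type 1 to 3, at 0.05 ± 0.21 (limma adjusted p 0.957). Its lines differed more within the groups than between them. Asns, the asparagine synthetase gene and a standard ATF4 target, had -0.058 ± 0.15 (limma adjusted p 0.933). The values were 0.29 ± 0.20 for Ddit3, the stress factor gene CHOP, 0.037 ± 0.29 for the pseudokinase gene Trib3 and -0.19 ± 0.44 for the glutathione-degrading enzyme gene Chac1. The serine synthesis genes had -0.11 ± 0.10 (Psat1) and -0.12 ± 0.11 (Phgdh), and the cystine transporter gene Slc7a11 had 0.26 ± 0.44. The 3 of smallest p were Mthfd2, above, Ddit4, an mTORC1 inhibitor gene, at 0.56 ± 0.17 (limma adjusted p 0.292), and the stress gene Nupr1 at 1.14 ± 0.37 (limma adjusted p 0.323).

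Genes that act on tRNA or on mitochondrial translation leaned lower, as the synthetase genes did, with 0 past the limma threshold. Of 27 tested tRNA modification and processing genes, 21 were negative, with a median of -0.13 (4 unadjusted, 14.8% against 10.2%). The mitochondrial RNase P subunit gene Trmt10c had -0.65 ± 0.20 (limma adjusted p 0.292), the tRNA deaminase gene Adat2 0.54 ± 0.17 (limma adjusted p 0.305) and the methyltransferase gene Nsun2 -0.30 ± 0.13 (limma adjusted p 0.458). Of 9 mitochondrial translation factors, 7 were negative, with a median of -0.20 (0 unadjusted), and the 3 of smallest p were Guf1 at -0.48 ± 0.24 (limma adjusted p 0.538), Mtrf1l at -0.56 ± 0.30 (limma adjusted p 0.561) and Mtif3 at 0.67 ± 0.41 (limma adjusted p 0.614). Of 11 other aminoacylation factors, 7 were negative, with a median of -0.058 (0 unadjusted). After Eef1e1, the next by p were Sepsecs, which completes selenocysteine on its tRNA, at 0.33 ± 0.22 (limma adjusted p 0.646), and Qrsl1, a subunit of the enzyme that makes mitochondrial glutaminyl-tRNA, at -0.25 ± 0.22 (limma adjusted p 0.749).

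Cell division and growth genes had lower values in the same lines, with medians further below 0 than those of the synthetase genes, and their part in the synthetase values was not tested. The 12 tested Myc and growth genes were all negative, with a median of -0.32 and 0 past the limma threshold (7 unadjusted, 58.3% against 10.2% of all genes), led by the nucleolar gene Nolc1 at -0.59 ± 0.12 (limma adjusted p 0.137), Myc at -0.65 ± 0.16 (limma adjusted p 0.213) and the pyrimidine synthesis gene Cad at -0.39 ± 0.14 (limma adjusted p 0.391). The 19 tested G1/S and mitosis genes were all negative, with a median of -0.41 and 0 past the threshold (16 unadjusted, 84.2% against 10.2%), led by Mcm5 at -0.55 ± 0.12 (limma adjusted p 0.179), Kif11 at -0.51 ± 0.12 (limma adjusted p 0.196) and Plk1 at -0.45 ± 0.12 (limma adjusted p 0.224). The Myc and growth mean by array was -0.24, -0.15 and -0.11 in FoxO-null 1 to 3, against 0.15, 0.095 and 0.26 in wild-type 1 to 3. The G1/S and mitosis mean was -0.34, -0.12 and -0.14 in FoxO-null 1 to 3, against 0.23, 0.14 and 0.23 in wild-type 1 to 3. FoxO-null 1 was the lowest array for both, while FoxO-null 2 was the lowest for both synthetase classes.

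**Figure D4:**
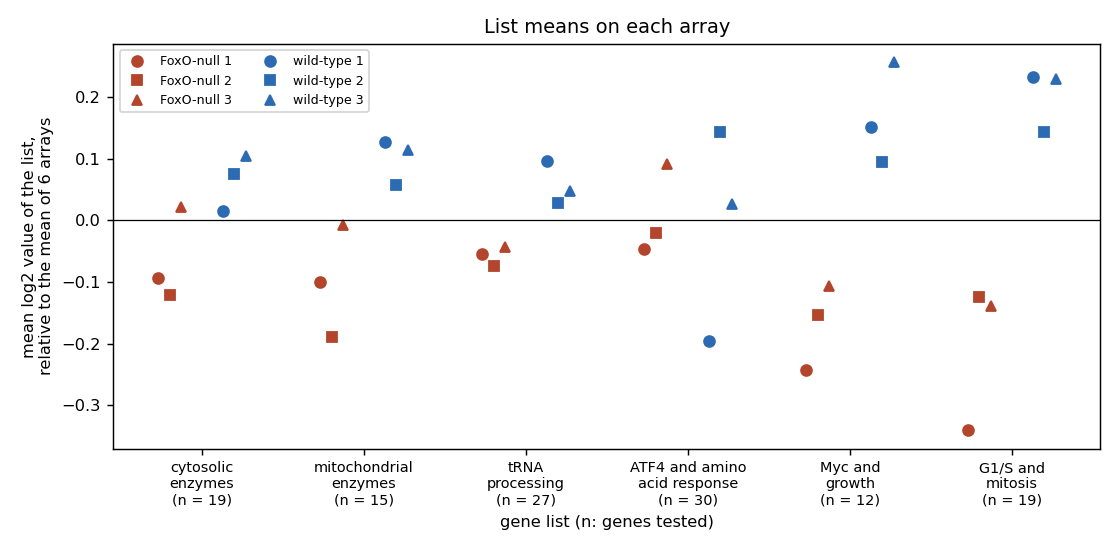
Mean log2 value of 6 gene lists on each array, relative to the mean of the 6 arrays, with 1 point per line and the group shown by colour. The groups are apart for mitochondrial enzymes, tRNA processing, Myc and growth, and G1/S and mitosis genes, and overlap for cytosolic enzymes and the ATF4 and amino acid response.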

How the data were processed

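RNA of 6 neural stem cell lines had been labelled with biotin and hybridised to 1-colour Affymetrix arrays. The deposited values are MAS5 signal intensity values on a linear scale, summarised per probe set by the authors, per the submitters' processing notes; the MAS5 version is not given in the sources used here. Probe sets were named through the platform annotation: of 45037 non-control probe sets, 34945 had a single gene, 932 had several and 9160 had none or were not listed. For each gene the probe set of highest mean signal was used. Its log2(signal + 5.94), with the 20th percentile of all values as offset, was tested in limma 3.58.1 (R 4.3.3) with an intensity trend over the 12663 genes above a mean signal of 16.2, the 40th percentile. Fold changes are FoxO-null minus wild-type on this scale, which understates those of dim genes. P-values were adjusted by Benjamini-Hochberg over all genes tested, with a threshold of 0.05, and describe the spread between these 6 lines. An exact permutation test of 3 against 3 arrays cannot go below p = 0.1 and was not used. The number of arrays limits the precision.

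The members and gene lists were chosen with earlier results of these data known, and their lists of known roles were written by hand. Values on all arrays are given for the 6 cytosolic and 5 mitochondrial enzyme genes of smallest p, for Eprs, Farsa, Farsb, Aimp1 and Aimp2, and for the paralogue of the 3 genes of smallest p. For the other lists the 3 genes of smallest p are named, with Atf4, Asns, Ddit3, Trib3, Chac1, Psat1, Phgdh, Slc7a11 and Eef1e1 whatever their values. Gars, Sars2, Nars2 and Mars2 are given in full as well, chosen after their values were seen. Promoter sequences are RefSeq's on GRCm38.p6. The fit was tested on 10 simulated data sets with 200 changed genes each. At the adjusted threshold it recovered 49.3% of 2-fold and 80.4% of 4-fold changes, and 3.58% of calls were false. Changes under 2-fold, such as those of the synthetase genes here, were not simulated.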

Additional observations from a re-analysis of the deposited data

How the results depend on the processing

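Under the 18 other settings tried, 0 synthetase genes passed the adjusted threshold in any, while 3 to 7 were lower and 0 higher at an unadjusted p under 0.05, and 27 to 32 of the 36 were negative. Of 648 single-gene values, 628 kept their direction and 20 turned it, 13 of them with 1 array left out, and 24 genes never turned. The 5 of all genes past the threshold became 1 with an offset of 1, with no filter, with quantile normalization, with the mean of all probe sets or without cross-hybridising (x and s) probe sets, a setting added after seeing the data. It became 0 with median centring (1047 unadjusted) or with no intensity trend (1107 unadjusted), and 0 to 11 with 1 array left out, lowest without FoxO-null 1 (812 unadjusted) and highest without wild-type 3. The cause was not tested. Correlations of deviations from the group means were 0.023, 0.092 and 0.12 between lines of the same replicate number. Between lines of different numbers they were -0.15 to 0.073. All are small, and whether the replicate numbers pair the lines was not tested. With the replicate block 6 genes passed, 0 of them synthetase genes. The cytosolic median was -0.18 with median centring and -0.17 to -0.091 with 1 array left out. The mitochondrial median was -0.27 to -0.18, and the cytosolic minus mitochondrial median 0.022 to 0.16, with 1 array left out. Median centring turned Aimp1 to -0.047, Cars to -0.038 and Iars2 to -0.047. The mean of all probe sets turned Farsa to 0.090, Wars to -0.031 and Wars2 to -0.018, and leaving out x and s probe sets turned Wars to -0.12. With 1 array left out, genes whose sign turned ranged from -0.14 to 0.085 (Qars), -0.53 to 0.031 (Sars2), -0.060 to 0.11 (Cars), -0.053 to 0.14 (Iars2), -0.027 to 0.22 (Wars2), -0.00093 to 0.062 (Aimp1), -0.15 to 0.064 (Eprs), -0.15 to 0.010 (Iars), -0.21 to 0.047 (Aars) and -0.13 to 0.017 (Ears2).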
